A study of Homo sapiens with 6 samples.

Results

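The comparison described here sets BHT-101 cells given a small interfering RNA against CRABP2 beside BHT-101 cells given a control siRNA. BHT-101 is an established human line from an anaplastic thyroid carcinoma. The study sequenced 6 RNA libraries from 3 thyroid cancer cell lines, and the 2 BHT-101 libraries, called siControl and siCRABP2, are 2 of these 6. FTC-133 cells, from a follicular thyroid carcinoma, had the same pair of treatments, and 8505C cells received an expression vector or an empty one. Each treatment of each line is represented by 1 library of total RNA extracted with Trizol. The 2 BHT-101 libraries were identified by their line and treatment labels. The number of siRNA sequences, their dose and the hours between transfection and harvest are unknown from the labels. Every difference in BHT-101 is therefore a difference between 2 single libraries, with no replicate check and no test, and culture and treatment cannot be told apart.

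CRABP2 encodes cellular retinoic acid-binding protein, a small cytosolic protein that carries all-trans retinoic acid to the nucleus. There retinoic acid binds the retinoic acid receptors, which pair with retinoid X receptors and switch target genes on. FABP5 is a related carrier that can hand retinoic acid to the receptor PPARD instead, and the balance between these carriers has been studied in epithelial cancers.

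Expression is given in FPKM, a fragment count scaled to exon length and library size. A difference is log2(FPKM + 1) with siCRABP2 minus the same with siControl, so a positive value means a higher level in the siCRABP2 library and low genes are understated. Of 19945 protein-coding genes in the table, 15839 were above 0 in at least 1 of the 2 libraries, and 10508 reached an FPKM of 1 in at least 1 of them. These 10508 are called measured genes. The read totals recovered from the values were 27958622 for siControl and 22340806 for siCRABP2, and those of the other libraries ran from 22084110 to 27187323. Intervals given for single genes are 95% exact (Clopper-Pearson) intervals of the depth-scaled log2 read ratio. They cover counting error only, and not the spread between cultures. Even for counting error they may be too narrow, since PCR reads are not independent molecules.

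CRABP2 itself was the measured gene with the largest negative difference on this scale, which understates low genes. It lies on GRCh38 at chr1:156699606-156705816 on the minus strand, and siControl held 826 of its reads (27.3 FPKM) and siCRABP2 276 (11.4 FPKM). The difference was -1.19, with a counting interval of -1.46 to -1.06 for the read ratio. The siCRABP2 library thus kept a ratio of 0.418 of the control level. Some genes of lower level had a lower ratio. Among them, picked after seeing the values, were ADAMTSL2 (0.337), XAGE1B (0.397) and BGN (0.398). In RNA from a whole culture, fewer expressing cells and less RNA per cell cannot be told apart. In FTC-133 the corresponding difference was -3.09.

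The labelled thyroid origin had little trace among the genes that define thyroid follicular cells. Thyroglobulin (TG), the thyrotropin receptor (TSHR) and the transcription factor NKX2-1 were listed at 0 in both BHT-101 libraries. PAX8, another thyroid transcription factor, was at 0.233 FPKM with siControl and 0.273 with siCRABP2. Of 17 thyroid identity genes 3 were measured, namely DIO1, DIO2 and HHEX. DIO1, a deiodinase that activates thyroid hormone, was at 4.06 and 3.20 FPKM. Epithelial keratins were abundant, with KRT8 at 238 and 258 FPKM, KRT18 at 145 and 146, and KRT19 at 328 and 350. The leukocyte markers PTPRC and LYZ and the fibroblast collagen COL3A1 were at 0 in both libraries, while LUM, a proteoglycan also used as a fibroblast marker, was at 80.2 and 75.5 FPKM. The endothelial marker PECAM1 was at 0.919 and 1.07 FPKM.

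Most genes differed little between the 2 libraries. The median difference over measured genes was 0.01, the quartiles were -0.09 and 0.12, and 88.6% of genes lay within 0.25 of 0. By a rule of size, 16 genes (0.152%) were at least 2-fold higher with siCRABP2 and 3 genes (0.0285%) at least 2-fold lower. At a lower bar of 1.5-fold, a difference of 0.58 or more in size, 83 genes (0.79%) were higher and 28 (0.266%) lower. Above 0 lay 53.4% of measured genes and below it 46.6%. The imbalance past 1.5-fold depended on the scale, with 135 higher and 94 lower at a pseudocount of 0.1, 106 and 72 in depth-scaled recovered reads, and 216 and 149 over all gene types. Among genes at 1 to 5 FPKM in the library with the higher value, 31 of 4053 were 1.5-fold higher and 8 lower. Among genes at 100 FPKM or more these counts were 5 and 1 of 399. The counting interval excluded 0 for 4825 of 10476 genes, including all 83 and all 28 of the genes past 1.5-fold. Those were picked by size in the same 2 libraries, so their intervals are no independent support. Some of the 83, such as CCL20 and SAA2, reached an FPKM of 1 only with siCRABP2 and could only be higher. Likewise MMP11, among the 28, reached it only with siControl. Certain intervals were wide, as for PF4 with 9 and 18 reads (0.09 to 2.66), and the spread between cultures was not measured.

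**Figure D1:**
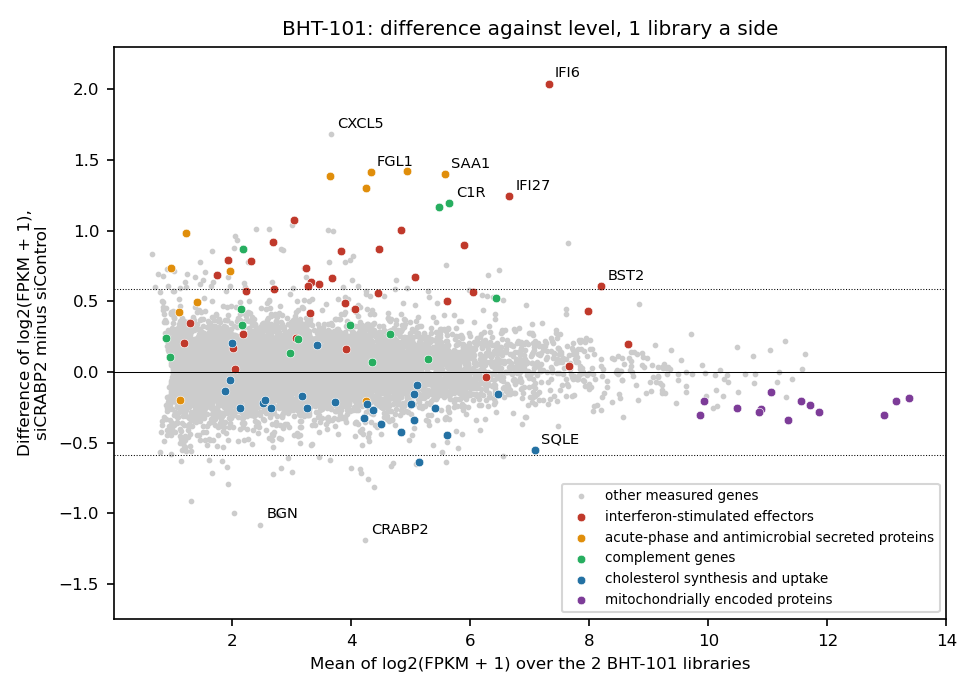
Difference between the 2 BHT-101 libraries (vertical axis, log2(FPKM + 1), siCRABP2 minus siControl) against mean level (horizontal axis, log2(FPKM + 1)) for 10508 measured protein-coding genes, 1 point a gene, with 5 gene lists in colour and dotted lines at 1.5-fold. Interferon-stimulated, acute-phase and complement genes lie mostly above 0, and IFI6 stands highest at 2.04, while cholesterol and mitochondrially encoded genes lie mostly below 0.

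The genes furthest above 0 with siCRABP2 included secreted defence proteins and interferon-induced genes. Among genes of at least 5 FPKM, the 12 largest positive differences belonged to IFI6, CXCL5, DEFB1, FGL1, SAA1, TCN1, LCN2, IFI27, C1R, C1S, OAS2 and HLA-B. IFI6 (chr1, minus strand), an interferon-induced mitochondrial protein, was at 77.6 FPKM with siControl and 322 FPKM with siCRABP2, a difference of 2.04. CXCL5, a chemokine that attracts neutrophils, was at 6.03 and 21.6 FPKM (1.68). DEFB1, an antimicrobial defensin of epithelia, was at 17.6 and 48.9 FPKM (1.42). All 12 were at least 2-fold higher, the smallest of these differences being 1.04 for HLA-B. The other 4 genes past 2-fold were picked after seeing the values, and all had smaller differences of 1.01. They were IFITM1, an antiviral membrane protein that the list rule below also names, BPIFB1, a secreted airway antimicrobial protein, LBP, the carrier of bacterial lipopolysaccharide, and SYTL5, a vesicle transport protein. SYTL5 was at 3.30 and 7.68 FPKM in BHT-101 and had a difference of -0.86 in FTC-133.

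Among genes of at least 5 FPKM, those furthest below 0 included genes of the cell surface, the matrix and the immediate early response. After CRABP2 the largest negative difference was that of BGN, the small matrix proteoglycan biglycan, at 7.07 FPKM with siControl and 2.81 with siCRABP2 (-1.08). CLDN2, a tight junction protein that forms cation pores, was at 8.67 and 3.79 FPKM (-1.01). MSC, a basic helix-loop-helix repressor, was at 26.7 and 14.8 FPKM (-0.81), and MRC2, a collagen uptake receptor, at 24.2 and 13.9 (-0.76). These are all genes of moderate level in BHT-101. FOS, a subunit of the AP-1 transcription factor, was at 21.9 and 12.9 FPKM (-0.72), and MCAM, an adhesion molecule, at 19.2 and 11.6 (-0.68). The other genes among the 12 lowest at this level were MOXD1, SLC37A2, LAPTM5, FLNC and TM4SF5, with differences from -0.72 to -0.67.

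**Figure D2:**
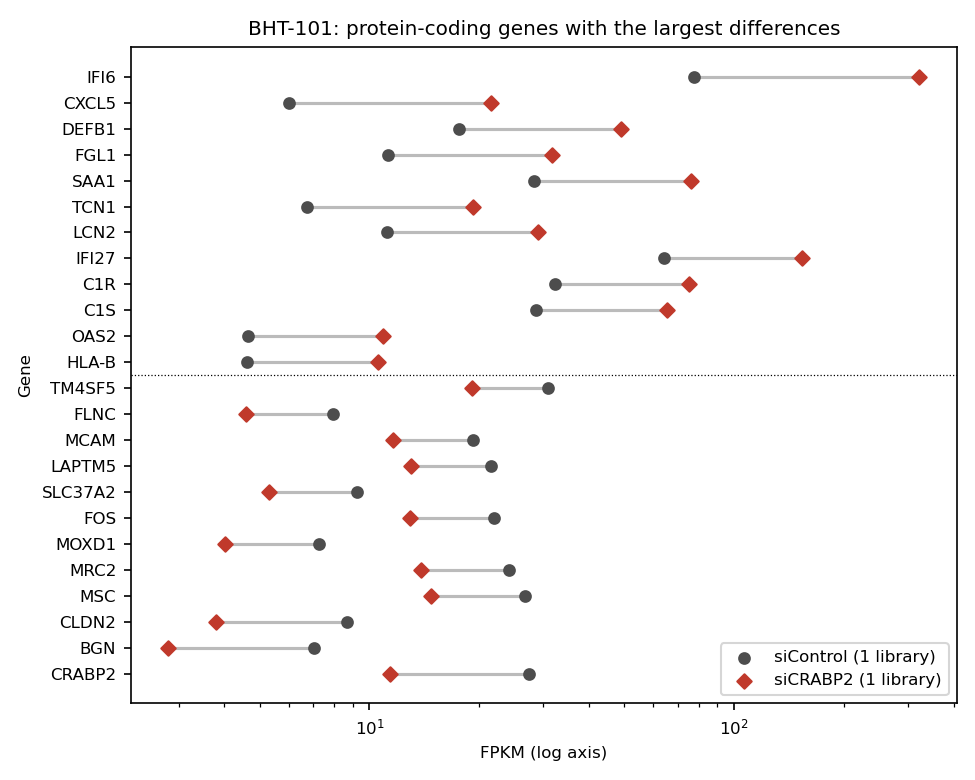
Level in each of the 2 BHT-101 libraries (horizontal axis, FPKM on a log scale) for the 12 genes with the largest positive and the 12 with the largest negative difference among genes of at least 5 FPKM, 1 point a library. IFI6 moves from 77.6 to 322 FPKM, and CRABP2 from 27.3 to 11.4 FPKM.

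Interferon-stimulated effectors were the list with the most members past 1.5-fold. These are proteins that cells make on sensing interferon, which block viral entry, degrade viral RNA or tag proteins with ISG15. Of 39 listed genes 37 were measured, 36 above 0 and 1 below (53.4% and 46.6% over all measured genes). Past 1.5-fold lay 19 members upward and 0 downward (51.4% of the list, against the 0.79% over all measured genes), and 4 were past 2-fold. The list median was 0.59, against 0.01 over all genes, and it stayed at 0.54 once the trend on GC and length had been removed. For 34 members the counting interval lay above 0 and for 0 below, against 2686 and 2139 of 10476 measured genes. The list was drawn up with earlier results of these libraries known, so its direction is not independent evidence.

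The members are given by role. Among membrane proteins, IFI27 was at 64.4 FPKM with siControl and 154 with siCRABP2 (1.24), IFITM1 at 19.1 and 39.4 (1.01), and BST2, which tethers budding virus particles to the cell, at 237 and 362 (0.61). The close relatives of IFITM1 were nearer 0, although reads of such near copies are uncertain. IFITM3 was at 375 and 430 FPKM (0.20) and IFITM2 at 77.0 and 74.9 (-0.04), the 1 member below 0. The 2'-5'-oligoadenylate synthetases, which make the activator of the antiviral nuclease RNase L, were OAS2 at 4.64 and 10.9 FPKM (1.08), OAS1 at 9.17 and 15.1 (0.66), and OAS3 at 7.03 and 11.5 (0.64). The related OASL was at 40.2 and 57.3 FPKM (0.50). The IFIT proteins, which bind viral RNA caps, ran from 0.42 for IFIT5 to 0.87 for IFIT1. IFIT1 was at 15.4 and 29.02 FPKM, IFIT2 at 25.8 and 41.7, and IFIT3 at 53.3 and 79.5. MX1, a GTPase that traps viral nucleocapsids, was at 3.69 and 7.88 FPKM (0.92). ISG15, the ubiquitin-like modifier itself, was abundant in both libraries, at 217 and 293 FPKM (0.43), and below the 1.5-fold bar. LGALS3BP and TRIM22 were within 0.04 of 0. Members outside the naming rule are given here to account for the list, chosen with their values known.

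The sensing and signalling genes upstream of these effectors differed less. Of 32 listed genes 21 were measured, 16 above 0 (53.4% over all measured genes) and 5 below. Their median was 0.13, and 1 was past 1.5-fold upward (0.79% over all). That member was the RNA sensor DDX58 (RIG-I), at 13.0 FPKM with siControl and 20.4 with siCRABP2 (0.61). SOCS3, a feedback inhibitor of cytokine receptors, was at 14.8 and 22.1 FPKM (0.55), and the RNA sensor IFIH1 at 4.29 and 5.81 (0.37). DDX58 and IFIH1 are themselves interferon-inducible in many cells. IRF7 had a difference of 0.34, DHX58 of 0.31 and EIF2AK2 of 0.29. The adaptor MAVS (-0.18), IRF3 (-0.21) and TMEM173 (STING, -0.11) were below 0, and the receptor chains IFNAR1 (-0.04) and IFNAR2 (0.07) near it. The interferon genes on the list had next to no reads. IFNB1 was at 0 FPKM with siControl and 0.0534 with siCRABP2, IFNL1 at 0.0462 and 0.347, IFNL2 at 0.0485 and 0.182, and IFNL3 at 0.0464 and 0. None of these reached the FPKM of 1 that a measured gene needs. IFNE was at 0.630 and 0.425 FPKM.

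Antigen presentation by MHC class I, which interferon also raises, showed 14 of 15 measured members above 0 (53.4% over all measured genes). Their median was 0.14, and 1 was past 1.5-fold upward (0.79% over all). HLA-B was at 4.61 FPKM with siControl and 10.5 with siCRABP2 (1.04). HLA-C, at 175 and 193 FPKM (0.14), was many times more abundant in both libraries. B2M, the shared light chain, was at 167 and 228 FPKM (0.45), and the peptide transporter TAP1 at 9.56 and 11.4 (0.24). HLA genes are polymorphic and near copies of each other, so how reads were shared among them is uncertain.

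The promoters of these effectors are shown because a short sequence, the interferon-stimulated response element, is the binding site through which interferon signalling acts on them. The letters searched were GAAANNGAAA on both strands, in 300-base windows from 250 bases before the start to 50 after, taken from RefSeq on GRCh38.p14. Below are the 150 bases before the start of 6 members, 5′ to 3′ on the gene's strand, with matches wholly inside the stretch in capitals. They come from chr1:27672193-27672342 (minus strand) for IFI6, chr14:94110586-94110735 (plus) for IFI27, chr11:313890-314039 (plus) for IFITM1, chr1:78649639-78649788 (plus) for IFI44, chr10:89392473-89392622 (plus) for IFIT1 and chr19:17405631-17405780 (minus) for BST2.
IFI6: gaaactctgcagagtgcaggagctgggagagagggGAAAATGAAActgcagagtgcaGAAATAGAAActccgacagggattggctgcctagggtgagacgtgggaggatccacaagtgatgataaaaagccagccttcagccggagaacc
IFI27: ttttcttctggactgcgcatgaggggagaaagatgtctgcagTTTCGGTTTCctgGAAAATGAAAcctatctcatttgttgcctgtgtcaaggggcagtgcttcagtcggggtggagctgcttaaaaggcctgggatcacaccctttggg
IFITM1: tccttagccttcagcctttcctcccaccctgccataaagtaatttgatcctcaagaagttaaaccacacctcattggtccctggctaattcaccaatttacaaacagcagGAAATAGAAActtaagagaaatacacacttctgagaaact
IFI44: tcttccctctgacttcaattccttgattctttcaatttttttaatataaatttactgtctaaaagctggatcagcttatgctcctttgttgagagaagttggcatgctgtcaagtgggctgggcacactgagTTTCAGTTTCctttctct
IFIT1: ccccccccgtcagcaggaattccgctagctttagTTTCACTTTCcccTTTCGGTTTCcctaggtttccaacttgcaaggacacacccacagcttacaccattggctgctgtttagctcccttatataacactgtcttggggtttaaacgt
BST2: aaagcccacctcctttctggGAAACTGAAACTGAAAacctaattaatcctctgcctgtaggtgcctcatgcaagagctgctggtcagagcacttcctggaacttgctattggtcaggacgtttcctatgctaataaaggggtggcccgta
The IFI6 and IFI27 stretches hold 2 matches each, IFIT1 holds 2 and BST2 has 2 that overlap, while IFITM1 and IFI44 hold 1 each. A capital run of TTTC letters is the element read on the other strand.

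Of 31 measured effectors with a RefSeq window, 22 (71%) held the letters, against 3.65% of all 27305 windows and 2.88% of the 8619 measured genes that had one. Among genes past 1.5-fold upward 16 of 61 (26.2%) held them, and among those past it downward 0 of 22. The upward genes include effectors already counted above, such as IFI6 and BST2. They were also picked by size in the same libraries, so their share is not a separate result. Effectors with and without a match had similar medians, while every windowed effector with a difference above 0.78 held a match. OAS2, at 1.08, had no window. The 22 with a match had a median difference of 0.59 and a range of 0.04 to 2.04, and the 9 without had a median of 0.61 and a range of 0.21 to 0.78. A match is only these letters in this window. The direct repeats bound by retinoic acid receptors, a pair of AGGTCA in a row with 2 or 5 bases between, were found in 0 of the 8619 windows of measured genes in their strict form. Of all 27305 windows 0 held the form with 2 bases between and 1 the form with 5. The strict form is thus too rare for its absence to describe the measured genes.

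Secreted acute-phase and antimicrobial proteins had the highest list median on this scale. These are made by liver and by epithelia, many of them during inflammation. Of 29 listed genes 12 were measured, with 10 above 0 (53.4% over all measured genes), 8 past 1.5-fold upward (0.79% over all), 0 downward, and a median of 0.86. SAA2 and FGG, among the 8, reached an FPKM of 1 only in the siCRABP2 library and so had to differ upward. SAA1, serum amyloid A, was at 28.3 FPKM with siControl and 76.3 with siCRABP2 (1.40), and its near copy SAA2 at 0.658 and 2.27 (0.98). FGL1, a fibrinogen-like protein of liver, was at 11.3 and 31.7 FPKM (1.42). LCN2, which sequesters bacterial iron carriers, was at 11.2 and 28.9 FPKM (1.30), and TCN1, a vitamin B12 binder of secretions, at 6.72 and 19.2 (1.39). The 2 members below 0 were SERPINA1, the antitrypsin gene, at 19.3 and 16.6 FPKM (-0.21), and ORM1 at 1.35 and 1.04 (-0.20). The list was therefore not uniform, and 17 of its genes, among them CRP, HP and LTF, were under the level of a measured gene. With only genes of at least 5 FPKM its median was 1.40, with a pseudocount of 5 it was 0.36, and with the members under that level included it was 0.28. In the last pair of settings interferon effectors had the higher median, 0.43 and 0.57.

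All 14 measured complement genes were above 0 (53.4% over all measured genes), with a median of 0.30 and 3 past 1.5-fold (0.79% over all). C2 and CFI reached an FPKM of 1 only in the siCRABP2 library. C1R and C1S, the proteases that start the classical pathway, were at 32.2 and 75.1 FPKM (1.20) and at 28.6 and 65.4 FPKM (1.16). C3, the central component, was at 2.37 and 5.16 FPKM (0.87), and CFB at 2.82 and 4.19 (0.44). Regulators were above 0 as well. CD55, which protects host surfaces, was at 6.47 and 7.18 FPKM (0.13), CD46 at 36.8 and 39.2 (0.09), and CD59 at 18.8 and 19.8 (0.07). CD59 and CD46, both membrane-bound, were thus the members nearest 0. SERPING1, the inhibitor of C1R and C1S, was listed at 0 in both libraries.

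Of 17 chemokines 12 were measured, with 9 above 0 (53.4% over all measured genes), 6 past 1.5-fold upward (0.79% over all) and a median of 0.48, which was 0.24 with a pseudocount of 5. CCL5, which attracts T cells and monocytes, was the most abundant, at 145 FPKM with siControl and 273 with siCRABP2 (0.91). CXCL10 and CXCL11, the interferon-induced ligands of CXCR3, were low, at 1.58 and 3.01 FPKM (0.63) and at 1.22 and 2.42 (0.62). CXCL1 was at 1.27 and 2.56 FPKM (0.65) and CCL20, measured only through the siCRABP2 library, at 0.449 and 1.40 (0.73). Not every inflammatory chemokine stood that high. CXCL8 was at 7.49 and 8.92 FPKM (0.22), CXCL2 at 6.83 and 7.91 (0.19), and CCL2 at 3.08 and 2.77 (-0.11). Of the 12 measured chemokines 3 were below 0, the lowest at -0.45. The broader list of NF-kB targets and cytokines was split, with 9 of 19 measured members above 0 and 10 below and a median of -0.07 that was 0.00 after trend removal. Its member past 1.5-fold was PTGS2, the inducible cyclooxygenase, at 1.53 and 2.85 FPKM (0.61). VCAM1, an adhesion receptor for leukocytes, was at 18.4 and 27.2 FPKM (0.54), whereas the feedback inhibitors NFKBIA (0.02) and TNFAIP3 (-0.11) were near or below 0. A kappa-B-like sequence, GGGNNTTCC on either strand, lay in the windows of 4 of 8 chemokines and 4 of 15 members of the NF-kB list, against 8.19% of measured genes.

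**Figure D3:**
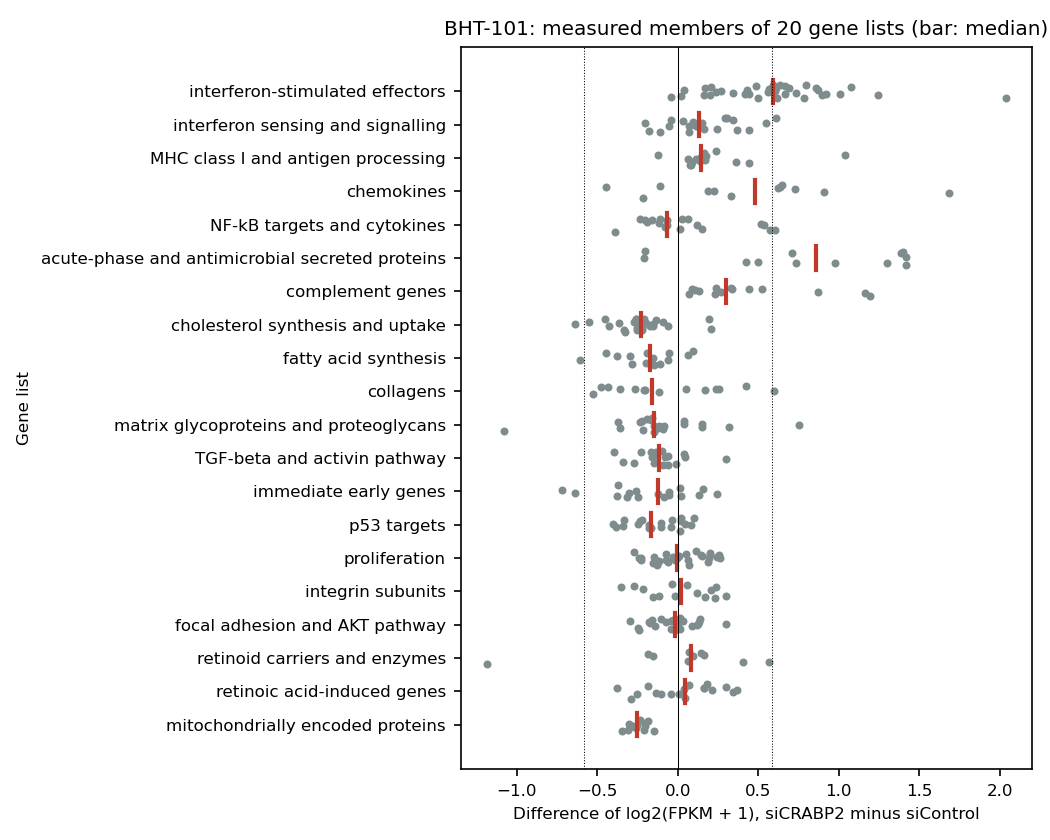
Difference of each measured member (points) and the list median (bar) for selected gene lists, in log2(FPKM + 1), siCRABP2 minus siControl in BHT-101. The medians are 0.86 for acute-phase and antimicrobial proteins, 0.59 for interferon-stimulated effectors and 0.48 for chemokines, and -0.23 for cholesterol synthesis.

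Most genes of sterol and fatty acid synthesis lay below 0, as did 46.6% of all measured genes. The enzymes of these pathways are switched on together by SREBP factors when membrane sterol is low. All 25 listed cholesterol genes were measured, and 23 were below 0 and 2 above, with a median of -0.23 and -0.22 after trend removal. Most members differed little, and 1 was past 1.5-fold downward (0.266% over all measured genes). That was DHCR7, which makes the last step to cholesterol, at 43.1 FPKM with siControl and 27.4 with siCRABP2 (-0.64). SQLE, squalene epoxidase, was at 164 and 111 FPKM (-0.55), INSIG1, a sterol-sensing brake on SREBP, at 56.3 and 40.9 (-0.45), and MSMO1 at 32.3 and 23.8 (-0.43). LSS, which closes the sterol rings, was at 19.7 and 15.5 FPKM (-0.33), and HMGCS1, an early enzyme of the pathway, at 5.89 and 4.77 (-0.26). SC5D, a late desaturase, was above 0 (0.21). For 21 members the counting interval lay below 0, as it did for 2139 of 10476 measured genes. The sterol element TCACNCCAC, searched on both strands, lay in 1 of the 18 windows found (5.56%), that of SREBF2, against 1.08% of measured genes. Fatty acid synthesis had 12 of 14 measured members below 0 and a median of -0.17. Its largest differences were those of FADS2, a desaturase of polyunsaturated fatty acids, at 8.48 and 5.22 FPKM (-0.61), FASN at 37.0 and 26.9 (-0.44), and SCD at 202 and 155 (-0.38).

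Most retinoid genes around CRABP2 were near 0, while FABP5 and ALDH1A1 lay above the upper end (0.36) of the range that holds the middle 95% of measured genes. Among carriers and enzymes 10 of 21 were measured, 7 above 0, with CRABP2 the 1 member past 1.5-fold and a median of 0.08. FABP5, the alternative carrier, was at 169 FPKM with siControl and 225 with siCRABP2 (0.41). ALDH1A1, which oxidises retinal to retinoic acid, was at 31.1 and 46.6 FPKM (0.57), and its relative ALDH1A3 at 5.91 and 6.64 (0.15). CYP26A1 and CYP26C1, which break retinoic acid down, and the carrier CRABP1 were at 0 in both libraries. CYP26B1 was at 0.257 and 0.366 FPKM. No measured enzyme or carrier other than CRABP2 was therefore past the bar. The receptors and their cofactors had 8 of 14 measured members above 0 and a median of 0.03. RARA was at 3.90 and 3.68 FPKM (-0.07), RARG at 5.36 and 5.33 (-0.01), RXRA at 7.54 and 7.39 (-0.02) and RXRB at 14.9 and 15.2 (0.03). RARB, both a receptor and a classical retinoic acid target, was at 1.35 and 1.73 FPKM (0.21, counting interval 0.01 to 0.70). PPARD, the receptor linked to FABP5, was at 3.88 and 3.43 FPKM (-0.14).

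Genes known to be induced by retinoic acid were split, with 11 of 18 measured members above 0, none past 1.5-fold in either direction and a median of 0.04. The 3 retinoic acid receptor responders were on one side, with RARRES1 at 7.60 FPKM with siControl and 10.1 with siCRABP2 (0.37), RARRES2 at 7.74 and 10.1 (0.35), and RARRES3 at 22.4 and 27.8 (0.30). The transglutaminase TGM2, abundant in these cells, was at 125 FPKM in both (0.01). HOXA5 (-0.29), HOXB4 (-0.26) and HOXB5 (-0.19) were below 0, and HOXA2 (0.16) and HOXB2 (0.18) above. EGR1, at 29.2 and 22.3 FPKM (-0.37), is also an immediate early gene.

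Adhesion and matrix genes had few members past 1.5-fold, and outside the integrins more of them lay below 0 than above. Over all measured genes 46.6% lay below 0. Among integrins 7 of 14 measured subunits were above 0 and 7 below, none past 1.5-fold, with a median of 0.02. The beta-1 subunit ITGB1 was at 166 FPKM with siControl and 187 with siCRABP2 (0.17), ITGAV at 52.5 and 62.1 (0.24), ITGA3 at 90.5 and 77.9 (-0.21) and ITGB4 at 17.9 and 14.7 (-0.27). Focal adhesion and AKT genes had 11 of 26 above 0 and 15 below, none past 1.5-fold. All 7 measured laminins were below 0, with a median of -0.05 that was 0.00 after trend removal. PTK2, the focal adhesion kinase, was at 6.93 and 7.68 FPKM (0.13), AKT1 at 9.13 and 9.25 (0.02) and AKT2 at 8.91 and 8.63 (-0.04). These kinases, chosen with their values known, were within 0.13 of 0, while the focal adhesion and AKT list ran from -0.30 to 0.30. Collagens had 8 of 14 below 0 and a median of -0.16, which was -0.06 after trend removal and 0.05 among members of at least 5 FPKM. COL5A2 was at 23.9 and 36.6 FPKM (0.60), while COL18A1 was at 21.98 and 16.0 (-0.43). Matrix glycoproteins had 15 of 21 below 0 with a median of -0.15. BGN was the lowest, and EFEMP1, a fibulin, the highest at 36.1 and 61.6 FPKM (0.76). Among matrix proteases, MMP2, the gelatinase, was at 41.7 and 26.2 FPKM (-0.65), and the plasminogen activators ran opposite ways, PLAU at 22.2 and 15.6 (-0.49) and PLAT at 14.6 and 22.1 (0.57).

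Markers of epithelial and mesenchymal state did not sort by class. Of 24 measured epithelial genes 9 were above 0 (53.4% over all measured genes), with a median of -0.08. Of 13 mesenchymal genes 7 were above 0, with a median of 0.01. Past 1.5-fold downward (0.266% over all) lay 1 epithelial member, CLDN2 (-1.01), and 2 mesenchymal members, MSC (-0.81) and MRC2 (-0.76). Upward, 0 members of either list were past it. CDH1, the epithelial cadherin, was at 4.74 FPKM with siControl and 6.61 with siCRABP2 (0.41), while EPCAM was at 20.4 and 15.7 (-0.36). VIM, vimentin, was at 134 and 107 FPKM (-0.32), the transcription factor ZEB1 at 1.86 and 2.35 (0.23) and CDH2 at 46.1 and 49.2 (0.09). Proliferation genes were evenly split, 15 above and 15 below 0 of 30 measured. MKI67 was at 8.62 and 7.86 FPKM (-0.12) and TOP2A at 32.4 and 37.2 (0.19). Within that list the replication licensing factors MCM2 to MCM7 were all below 0, from -0.24 for MCM4 to -0.07 for MCM7.

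Several regulatory lists leaned below 0 with few large members. Of 17 measured immediate early genes 12 were below 0 (46.6% over all measured genes), with a median of -0.13 that was -0.05 after trend removal. FOS and JUN were past 1.5-fold downward (0.266% over all). JUN, the partner of FOS in AP-1, was at 59.5 FPKM with siControl and 37.9 with siCRABP2 (-0.64). Of 21 p53 targets 15 were below 0, with a median of -0.17 that was -0.11 after trend removal, the cell cycle inhibitor CDKN1A being at 42.1 and 33.0 FPKM (-0.34). Of 18 TGF-beta and activin genes 15 were below 0, with a median of -0.12. TGFB1, the main ligand, was at 47.7 and 37.5 FPKM (-0.34), and SMAD7, a feedback inhibitor, had a difference of -0.27. These are values under the bar of 1.5-fold. In the Notch list 8 of 11 were below 0, among them the ligand JAG2 at 15.0 and 10.8 FPKM (-0.44), while the target HES1 was at 35.8 and 50.6 (0.49).

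The aldo-keto reductases, which reduce steroids, retinal and lipid aldehydes, stood above 0 within a list of NRF2 targets. That list was split as a whole, with 10 of 19 above 0, the reductases included. AKR1C2 was at 10.4 FPKM with siControl and 18.5 with siCRABP2 (0.78), AKR1C1 at 20.7 and 31.7 (0.59), AKR1B10 at 78.0 and 111 (0.51) and AKR1C3 at 103 and 143 (0.47). Of the other targets, NQO1 was at 0.25 and HMOX1 at -0.10. The reductases were singled out with their values known. AKR1C genes are near-identical, so the split of reads among them is uncertain. In the IGF system, the binding proteins IGFBP3, at 4.25 and 8.59 FPKM (0.87), and IGFBP6, at 69.1 and 115 (0.72), were above 0, and IGFBP2, at 66.9 and 49.0 (-0.44), below.

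Respiratory chain genes of the mitochondrial genome lay below 0, and most of the nuclear-encoded ones lay slightly above it. All 13 protein genes of the mitochondrial genome were below 0 (46.6% over all measured genes), from -0.34 for MT-ND1 to -0.14 for MT-ND4L. Their median was -0.26, which was -0.11 with quantile normalization and -0.40 after trend removal. MT-CO3 was at 8779.6 FPKM with siControl and 7099.7 with siCRABP2. The share of reads from mitochondrial genes was 5.42% with siControl and 4.72% with siCRABP2. Of 28 nuclear-encoded subunits 21 were above 0 (53.4% over all measured genes). Their median of 0.10 lay inside the quartiles of all measured genes (-0.09 and 0.12). No member of either list was past 1.5-fold. Cytosolic ribosomal protein genes had 29 of 38 below 0 (46.6% over all measured genes) and a median of -0.05.

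The difference followed base composition. Across 10505 genes it correlated with the GC content of the longest transcript, with Pearson's r of -0.344 and Spearman's rho of -0.403. These are descriptions across genes of the same 2 libraries, and genes are not independent replicates. In 10 equal bins of GC, the 1051 genes of the lowest bin (30.2% to 38.4%) had a median difference of 0.10, and the 1051 of the highest (61.7% to 75.8%) a median of -0.08. In FTC-133 the correlation with GC was -0.075. The median GC content was 47.9% for genes past 1.5-fold upward, 58.5% for those past it downward and 48.2% for all measured genes. Taking out the GC and length trend left 69 genes 1.5-fold higher and 26 lower. The trend is small beside the differences of the leading genes, since IFI6 was at 2.00, C1R at 1.26, CRABP2 at -1.21 and BGN at -1.03 after its removal.

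**Figure D4:**
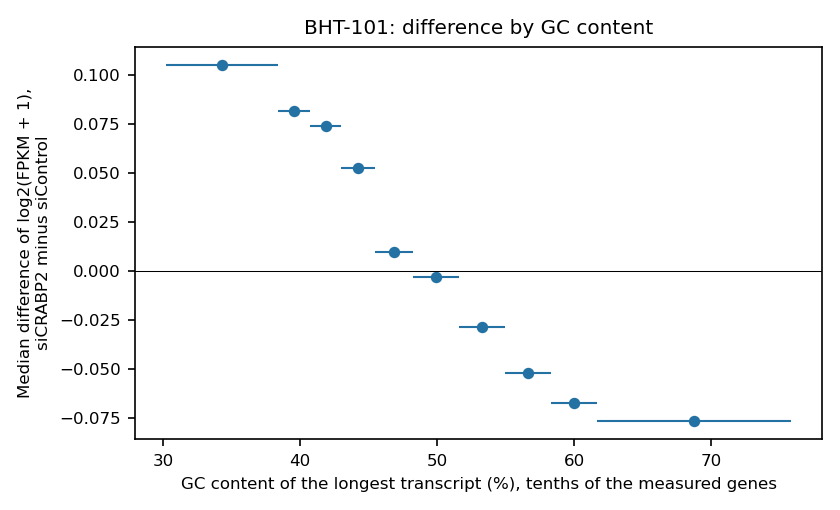
Median difference between the 2 BHT-101 libraries (vertical axis, log2(FPKM + 1)) in 10 equal bins of measured genes by GC content of the longest transcript (horizontal axis, percent). The medians run from 0.10 in the lowest bin to -0.08 in the highest.

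Of the genes past 1.5-fold, 21 lay within 100 kb of another. They form 11 pairs, and both genes of every pair differed in the same direction, where 83 of the genes past 1.5-fold were higher and 28 lower. How often other measured genes have such a neighbour was not computed. The pairs were IFI44L with IFI44, CMPK2 with RSAD2, PF4 with CXCL5, CXCL10 with CXCL11, SAMD9 with SAMD9L, IFIT2 with IFIT1, SAA2 with SAA1, AKR1C1 with AKR1C2, C1S with C1R, and the OAS1, OAS3 and OAS2 row. Several are related copies, and no source states a stranded count, so reads at such neighbours may be shared.

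FTC-133 gave the same contrast in another line, with no library in common. Of 83 BHT-101 genes past 1.5-fold upward 54 were measured in FTC-133, and 45 of these were above 0 there. FTC-133 differed more widely. Of its own 10950 measured genes 6.37% were past 1.5-fold upward, 7.84% downward and 46.2% above 0, and of the genes measured in both lines 6.16% were past it upward. Of the 54 genes 33 were past 1.5-fold upward there and 2 downward. Of 28 BHT-101 genes past it downward 23 were measured, 19 were below 0, 7 were past 1.5-fold downward (6.83% of genes measured in both lines were) and 2 upward. The 28, 23, 19 and 7 each include CRABP2, the siRNA target in both lines, whose shared direction follows from the design. The difference between the lines was not tested. The interferon effectors had medians of 0.59 in BHT-101 and 1.12 in FTC-133. Chemokines had a median of 0.48 over 12 members in BHT-101 and 2.16 over the 8 of them measured in FTC-133. NF-kB targets and cytokines had medians of -0.07 and 1.05, with all 15 measured in FTC-133 above 0 there, and the ATF4 and unfolded protein response list had medians of -0.05 and 0.73. C1S, with a difference of 1.16 in BHT-101, was at 2.23 and 2.48 FPKM in FTC-133 (0.11). DEFB1 and FGL1 were listed at 0 in both FTC-133 libraries, and TCN1 at 0 FPKM with siControl and 0.147 with siCRABP2.

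**Figure D5:**
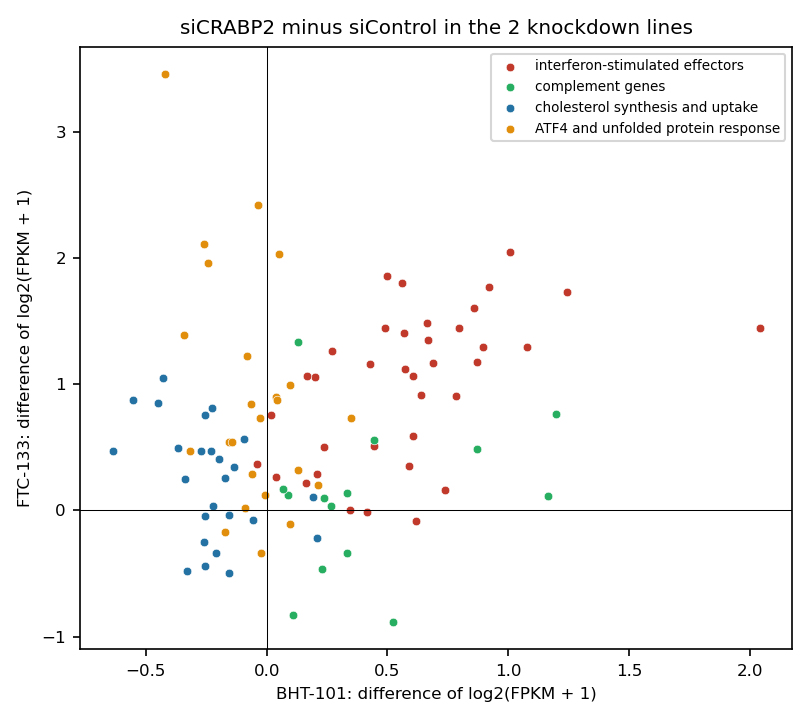
Difference of log2(FPKM + 1), siCRABP2 minus siControl, in BHT-101 (horizontal axis) and FTC-133 (vertical axis) for genes of 4 lists, 1 point a gene. All are measured in BHT-101, and some are under the level of a measured gene in FTC-133. Interferon-stimulated effectors lie mostly above 0 on both axes, while cholesterol genes lie mostly below 0 in BHT-101 and ATF4 genes above 0 in FTC-133.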

How the data were processed

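RNA sequencing values of 6 libraries were taken from 1 table of 58884 gene identifiers. Its deposited unit is FPKM, scaled by the authors for length and depth. Per the submitters' processing notes the tools were Trimmomatic 0.38, FastQC and featureCounts 2.0.0, with build GRCh38. Aligner, strand setting and annotation release: not given in the sources used here. Libraries were grouped by title, with 1 in each group.

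Genes were named and placed from GENCODE release 29 (58611 identifiers), which may not be the authors' release. FPKM times exon length fell on whole reads, at a tolerance of 0.001 reads, for 74.9% of the 33848 genes above 0 with release 29 lengths and for 99.1% with another length found by search, which gave each library's total. Recovered reads served for read numbers, intervals and 1 alternative only. Scripts were tested on simulated data. Python 3.11.15, pandas 2.3.3, scipy 1.17.1 and statsmodels 0.14.6 were used. The trend on GC content and log2 length was fitted by lowess (fraction 0.3).

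With 1 library a group no test was run. Genes were named by rule: CRABP2, the 12 largest differences each way at an FPKM of at least 5, up to 4 members of each of 46 lists (964 genes, 734 measured) with the largest differences, all measured retinoid, receptor and interferon signalling genes, and cell type markers. Other members were chosen after seeing their values. The comparison, lists and rules were chosen with earlier results of these data known. Alternatives were other pseudocounts, filters, scalings, gene types, TPM, depth-scaled reads and trend removal. The values of some list members are not reported here.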

Additional observations from a re-analysis of the deposited data

Results flagged for a closer look

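Some results ran opposite ways in the 2 lines that received siCRABP2, each line having 1 library a side, and the difference between lines was not tested. MSC, a transcriptional repressor, had a difference of -0.81 in BHT-101 and 1.26 in FTC-133. CYR61, a matricellular YAP target, was at 31.5 FPKM with siControl and 19.8 with siCRABP2 in BHT-101 (-0.64), and its difference was 0.92 in FTC-133. The cholesterol synthesis and uptake list had a median of -0.23 in BHT-101 and 0.35 in FTC-133, where 15 of 23 measured members were above 0.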

How the results depend on the processing

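The counts of genes past a size depended on the scale, and the named genes past 1.5-fold kept their sign in every alternative run. The number at least 2-fold higher was 16, and it was 44 with a pseudocount of 0.1, 10 with a pseudocount of 5, 33 in TPM, 71 over all gene types and 29 in depth-scaled recovered reads. The number at least 2-fold lower was 3, and under the same settings 10, 0, 5, 65 and 7. The number 1.5-fold higher was 83, and it was 135 with a pseudocount of 0.1, 29 with a pseudocount of 5, 52 with an FPKM filter of 5, 129 in TPM and 216 over all gene types. The number 1.5-fold lower was 28, and it was 94 and 7 with these pseudocounts, 60 in TPM, 149 over all gene types and 72 in depth-scaled recovered reads. CRABP2 was at -0.98 with a pseudocount of 5. The low counts at a pseudocount of 5 follow from its construction, which shrinks low genes, and the other causes were not tested. Of 42 named genes past 1.5-fold, 19 were under it with a pseudocount of 5 and 9 after trend removal. At most 6 of 46 list medians changed sign in any setting, and those of interferon effectors, acute-phase, complement, chemokine, cholesterol, fatty acid and mitochondrial genes changed in none. The collagen median, -0.16, was 0.05 with an FPKM filter of 5, and the chemokine median, 0.48, was 0.28 with no filter. No paired analysis was possible because, within BHT-101, each group has 1 library and the labels carry no replicate numbers. A fit over both knockdown lines, paired by line, was not run here. Depth limits genes of few reads, such as the interferon genes, and the spread between cultures could not be measured.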
